A study of Rattus norvegicus with 18 samples.

Results

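The transcripts described are those of 5 myosin light chains of striated muscle (Myl1, Myl2, Myl3, Myl4 and Mylpf) and of the kinase Mylk2, measured in 3 rat muscles with and without experimental autoimmune myasthenia gravis (EAMG). They were taken as every probe set of the array whose only gene symbol is 1 of these 6, with Mylpf entered under its other symbol, Myl11. The rule gave 8 probe sets of 6 genes, out of 31042 probe sets other than array controls, and the array names 14217 genes. All 8 reached a signal of 400 on at least 1 array and were tested among 12238 probe sets. Myl2 and Mylk2 had 2 probe sets each.

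The rats were female Lewis rats of 6 to 8 weeks. EAMG rats received 40 µg each of acetylcholine receptor (AChR), from the electric organ of the ray Torpedo, in complete Freund's adjuvant (CFA) with a further 0.5 mg of mycobacterium. Control rats received CFA without AChR, so that both groups carried the adjuvant. Muscles were taken 6 weeks after immunization. They were the diaphragm (DIA), which drives breathing, the extensor digitorum longus (EDL), a fast limb muscle that extends the toes, and the extraocular muscles (EOM), which turn the eye. The 6 groups were EAMG and control in each of DIA, EDL and EOM. Each group had 3 arrays, and every array held RNA pooled from several rats, given as 3 to a pool in the series description and as 4, or 4 to 5, in the methods. The methods call the 3 pools of a group independent and have the experiment run again to obtain them, so the p-values measure the spread between pools, in which the repeat of the experiment is included. The labels do not say which pools of different groups came from the same run, or which pools of different muscles came from the same rats. All arrays were treated as independent.

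The values are signals on a linear scale, with a trimmed mean of 500 on every array, and 27.9% to 31.1% of all probe sets reached 400 on a given array. The tissue labels were checked against marker genes. Myh13, the myosin heavy chain of EOM, read 17345 to 27950 on EOM EAMG and 24384 to 27688 on EOM control arrays, and no more than 323 on any array of the other muscles. Several arrays stood apart. The spiked poly-A RNA averaged 641 units on DIA EAMG 2 and 452 units on EOM EAMG 2, whereas the remaining 16 arrays had 8891 to 21471. On DIA EAMG 3 the 3'/5' ratio of GAPDH, which rises as RNA breaks down, was 2.66, whereas the remaining 17 arrays had 1.06 to 1.33. Slow fibre genes stood out on EDL EAMG 2, as described with Myl3 and Myl2.

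A myosin molecule of muscle has a pair of heavy chains, and each head carries an essential and a regulatory light chain. In adult fast fibres the essential chain comes from Myl1 and the regulatory chain from Mylpf, and in slow fibres, as in the ventricle of the heart, they come from Myl3 and Myl2. Myl4 is the essential chain of the atrium and of embryonic muscle. Mylk2, the myosin light chain kinase of skeletal muscle, is switched on by calcium and calmodulin and phosphorylates the regulatory chain, which raises the force of fast fibres after repeated stimulation.

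Of the 6 genes, 4 had an entry in the RefSeq promoter table for build GRCr8, and 5 windows of 250 bases before a transcript start were read from it. Myl2 and Mylk2 had none. The windows of the essential chains are shown because these genes have different patterns in the data. Myl3 differed between muscles, Myl1 did so less, and Myl4 was higher in EAMG. Capitals mark matches, on either strand, to the E-box (CANNTG, bound by the myogenic factors), the MCAT element (CATTCC), the CArG box (bound by serum response factor) and the MEF2 site. No matches overlapped.
Myl3, GRCr8 chr8:119616844-119617093, plus strand: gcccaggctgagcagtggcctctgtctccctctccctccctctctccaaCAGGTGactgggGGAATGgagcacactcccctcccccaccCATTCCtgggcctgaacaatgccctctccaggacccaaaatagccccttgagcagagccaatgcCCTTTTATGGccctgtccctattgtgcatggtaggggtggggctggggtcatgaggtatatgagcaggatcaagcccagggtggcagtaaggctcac
Myl1, first start, GRCr8 chr9:75907697-75907946, minus strand: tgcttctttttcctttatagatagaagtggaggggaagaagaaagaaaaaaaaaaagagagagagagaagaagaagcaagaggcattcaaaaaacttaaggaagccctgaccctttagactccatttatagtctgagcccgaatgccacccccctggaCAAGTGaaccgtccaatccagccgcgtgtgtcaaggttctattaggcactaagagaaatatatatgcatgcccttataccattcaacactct
Myl1, second start, GRCr8 chr9:75897800-75898049, minus strand: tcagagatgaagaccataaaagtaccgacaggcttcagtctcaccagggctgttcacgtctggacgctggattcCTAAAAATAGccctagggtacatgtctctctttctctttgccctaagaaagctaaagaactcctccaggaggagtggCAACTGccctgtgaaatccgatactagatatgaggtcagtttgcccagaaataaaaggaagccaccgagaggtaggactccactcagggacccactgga
Myl4, GRCr8 chr10:89975900-89976149, plus strand: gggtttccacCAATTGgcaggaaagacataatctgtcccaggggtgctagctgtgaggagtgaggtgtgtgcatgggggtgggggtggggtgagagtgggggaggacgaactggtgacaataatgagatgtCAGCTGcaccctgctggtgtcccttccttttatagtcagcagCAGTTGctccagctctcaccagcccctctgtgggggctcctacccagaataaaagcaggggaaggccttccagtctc
The Myl3 window held a CArG box match that began 97 bases before the start, which 1.5% of 33469 rat promoter windows of this length have, and 2 MCAT matches, at 189 and 161 bases, where 12.1% of windows have at least 1. The window before the second Myl1 start held a MEF2 match at 176 bases, found in 2.96% of windows, and neither this nor the CArG box was matched in the window of the first start. Myl4 held 3 E-box matches and none of the other motifs. The Mylpf window, at chr1:191260039-191260288 on the plus strand, held 1 E-box match, a motif that 65.5% of all windows contain. A match is a run of letters and was not tested as a binding site, and the Myl1 probe set was not assigned to either start.

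No fast or slow light chain passed the threshold for a change in EAMG in any muscle, while Myl4 was higher in EOM and Mylk2 in DIA. A change is the difference of mean log2 signals, EAMG minus control, and it passed at a limma p, adjusted by Benjamini and Hochberg over 12238 probe sets, under 0.05. In DIA, 1 of the 8 probe sets passed, a rise of Mylk2, where 2.68% of all probe sets passed and 1.53% passed as higher. In EOM, 1 passed, a rise of Myl4, where 1.5% of all did and 0.964% did as higher. In EDL, 0 passed, where 6.59% did, and none of the 8 had an unadjusted p under 0.05. The RNA came from whole muscle, so a change in the share of fibres of a type cannot be told apart from a change in the RNA of each fibre.

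**Figure D1:**
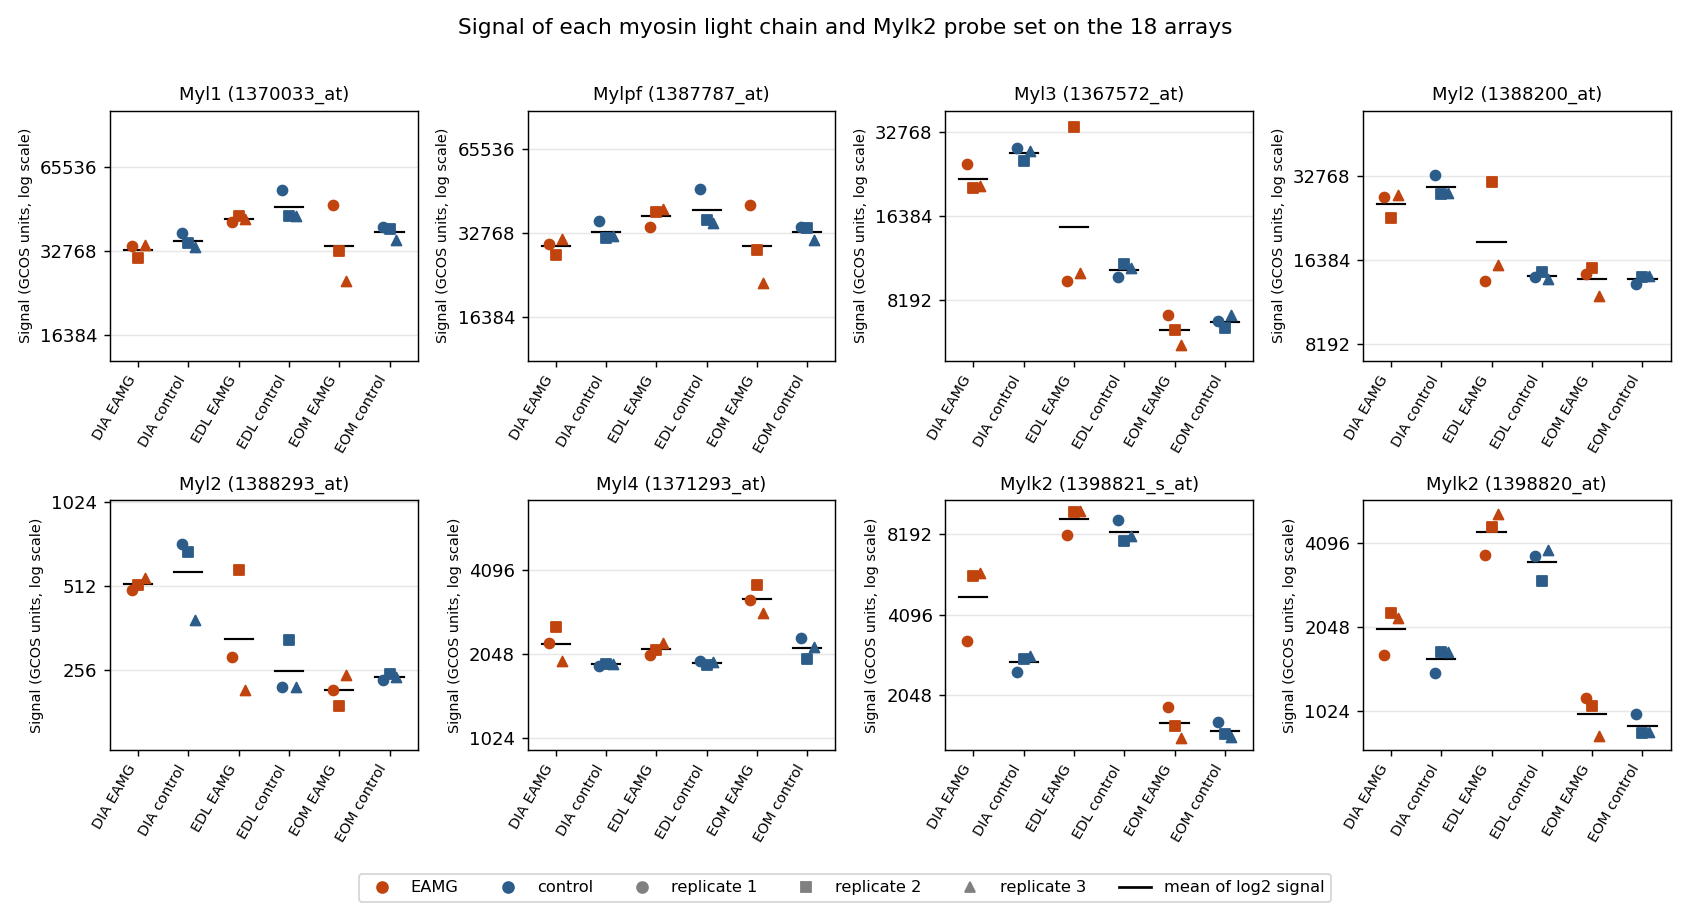
Signal of the 8 probe sets on each of the 18 arrays, on a log axis, with EAMG in orange to the left of control in blue for each muscle. Bars are means of the 3 log2 signals. Myl3 and Myl2 are high on all DIA arrays and on EDL EAMG 2, and Myl4 is higher on every EAMG array than on any control array of the same muscle.

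**Figure D2:**
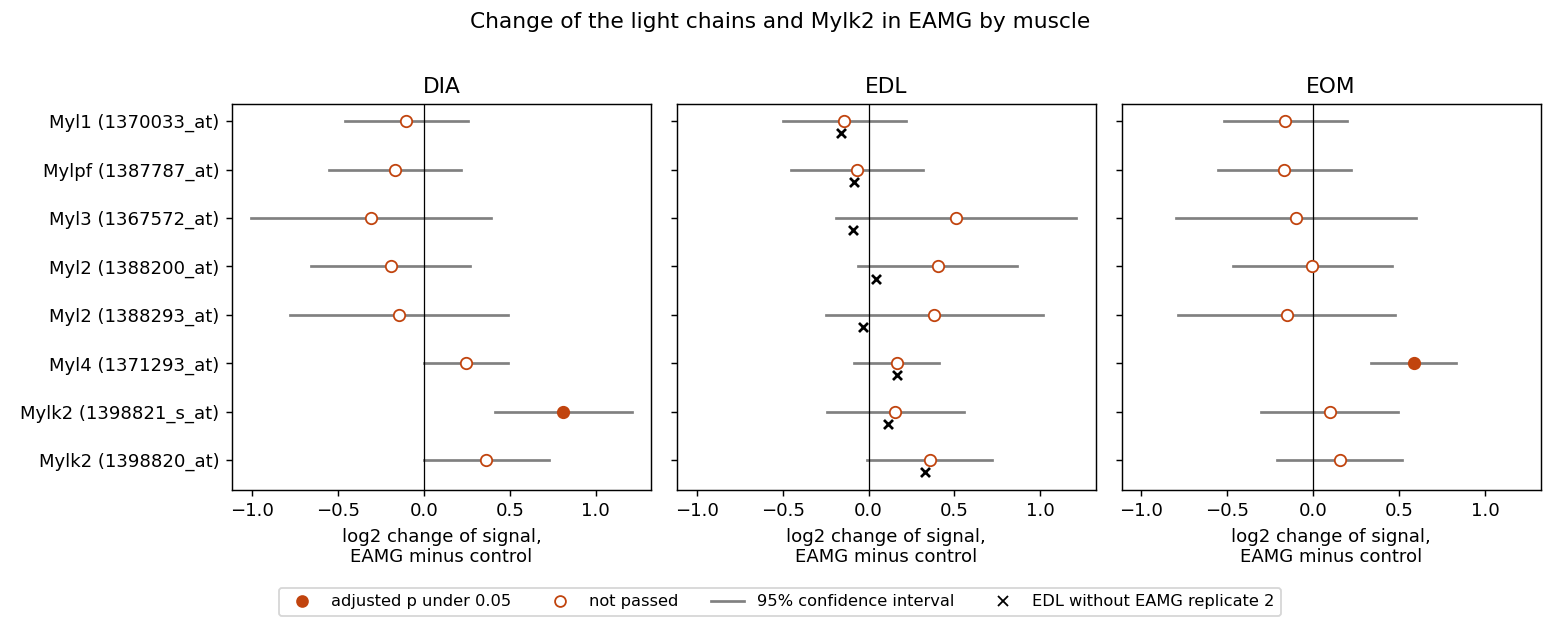
Change of the log2 signal of each probe set, EAMG minus control, by muscle, with its 95% confidence interval from limma. Filled points passed at an adjusted p under 0.05, and crosses in the EDL panel give the change without array EDL EAMG 2. Only Mylk2 in DIA (0.81) and Myl4 in EOM (0.58) passed, and the crosses of Myl3 and Myl2 lie near 0.

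Myl1, the essential chain of fast fibres, was read by probe set 1370033_at. Its signal was 34124, 31058 and 34334 on the DIA EAMG arrays, against 37903, 35159 and 33771 on the DIA control arrays. It was 41551, 43872 and 42714 in EDL EAMG, against 54123, 43865 and 43960 in EDL control, and 47756, 32848 and 25574 in EOM EAMG, against 39998, 39183 and 35837 in EOM control. The EAMG and control arrays overlapped in every muscle. The log2 changes were -0.10, -0.14 and -0.16 in DIA, EDL and EOM (SE 0.17 each), and none passed. Their mean, -0.13, did not pass either, except in the limma fit without EOM EAMG 1 (-0.22, adjusted p 0.0474). Among the controls, all 3 EOM and all 3 DIA arrays were below all 3 EDL arrays, with log2 differences of -0.30 and -0.40, but neither passed (adjusted p 0.171 and 0.0922 by limma). The DIA difference passed in 3 of 28 other settings. These were without EOM EAMG 1 (adjusted p 0.0224 by limma, SE 0.12), without EOM EAMG 3 (0.0391) and with DIA and EDL fitted alone (0.0313). The EOM arrays do not enter it but widened the SE of 0.17. It ranged from -0.46 to -0.08 over the 28 settings.

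Mylpf, the regulatory chain of fast fibres (1387787_at), had signals of 29960, 27503 and 31159 in DIA EAMG, against 36218, 31428 and 31946 in DIA control. All 3 DIA EAMG arrays were thus below all 3 controls, although the highest EAMG array lay just under the lowest control. In EDL the signals were 34522, 38950 and 40216 on EAMG arrays, against 47440, 36644 and 35672 on control arrays. In EOM they were 41395, 28662 and 21776 on EAMG arrays, against 34508, 34258 and 31033 on control arrays. The changes were -0.17, -0.07 and -0.17 in DIA, EDL and EOM (SE 0.18 each), and none passed. None of the 3 differences between control muscles passed either, the largest being -0.26 for DIA minus EDL, with a 95% interval from -0.64 to 0.13.

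Myl1 and Mylpf moved together. Over the 18 arrays the log2 ratio of Mylpf to Myl1 had an SD of 0.063, while the SD of Myl1 was 0.25 and that of Mylpf 0.25. The wide spread of both in EOM EAMG, highest on array 1 and lowest on array 3, was thus nearly the same for the 2 genes. The summed signal of 4 markers of skeletal muscle (Ckm, Acta1, Ttn and Des) was as wide there, 88044 to 149948 in EOM EAMG against 117388 to 126956 in EOM control. Its part in the EOM values was not tested.

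Myl3, the slow essential chain (1367572_at), varied most among the light chains, with an SD of 0.90 in log2 signal over the 18 arrays. It read 25122, 20617 and 20988 in DIA EAMG, against 28656, 25711 and 27942 in DIA control. It read 9554, 34154 and 10161 in EDL EAMG, against 9847, 10957 and 10638 in EDL control, and 7193, 6377 and 5638 in EOM EAMG, against 6854, 6460 and 7204 in EOM control. The DIA EAMG arrays were all below the DIA control arrays, whereas in EDL a single EAMG array was above all others and the remaining 2 lay among the controls. The changes were -0.31 in DIA, 0.51 in EDL and -0.10 in EOM (SE 0.33 each), and none passed. Without EDL EAMG 2 the EDL change was -0.09 (adjusted p 0.752 by limma). That array also widened the SE of the DIA and EOM changes, which it does not enter. Over the 18 fits that left out 1 array, the adjusted p of the DIA change was 0.147 to 0.827 by limma, so it passed in none.

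Between control muscles Myl3 was 2.62-fold higher in DIA than in EDL (log2 1.39 ± 0.33 SE, adjusted p 0.00663 by limma). It was lower in EOM than in DIA, at a log2 difference of -2.004 (adjusted p 3.94e-04). All 3 EOM control arrays were also below all 3 EDL control arrays, a difference of -0.62 whose adjusted p was 0.147 with all 18 arrays. That p was 6.12e-04 in the limma fit without EDL EAMG 2, an array that does not enter the difference but widened the spread shared by the groups, since the SE was then 0.11 in place of 0.33. The order of the control muscles was thus DIA, EDL, EOM, with the last step resting on how that array was treated.

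Myl2, the slow regulatory chain (1388200_at), had signals of 27563, 23200 and 28126 in DIA EAMG, against 33089, 28312 and 28585 in DIA control. In EDL they were 13868, 31299 and 15836 on EAMG arrays, against 14335, 14836 and 14006 on control arrays. In EOM they were 14649, 15395 and 12198 on EAMG arrays, against 13544, 14320 and 14384 on control arrays. As for Myl3, the DIA EAMG arrays lay below the controls and EDL EAMG 2 stood above every other EDL array. The changes were -0.19, 0.40 and -0.01 in DIA, EDL and EOM (SE 0.22 each), none passed, and the EDL change was 0.04 without EDL EAMG 2. The SE shared by these changes was widened by that array too. In control muscles Myl2 was 2.08-fold higher in DIA than in EDL (log2 1.06 ± 0.22 SE, adjusted p 0.00284) and lower in EOM than in DIA (log2 -1.09, adjusted p 0.00203, limma). Unlike Myl3, its control EOM and control EDL arrays overlapped, and the difference was -0.03 with a 95% interval from -0.49 to 0.43.

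The other probe set of Myl2, 1388293_at, read 495, 515 and 546 in DIA EAMG, against 719, 675 and 387 in DIA control. It read 283, 581 and 216 in EDL EAMG, against 222, 327 and 221 in EDL control, and 190 to 245 in EOM EAMG, against 235 to 246 in EOM control. Most of these are under the minimum of 400, so the differences are less certain. It had the same order of muscles, with control DIA above control EDL by 1.18 (adjusted p 0.00945) and control EOM below control DIA (log2 -1.25, adjusted p 0.00665, limma). EDL EAMG 2 was again the highest EDL array, and the 2 probe sets had a Pearson r of 0.916 over the 18 arrays, as a description.

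Array EDL EAMG 2 therefore set the EDL values of both slow chains. Its Myl3 signal was 3.26-fold the EDL control mean and its Myl2 signal 2.18-fold, while EDL EAMG 1 and 3 differed from that mean by -0.09 for Myl3 and 0.04 for Myl2 on the log2 scale. Myl1, Mylpf, Myl4 and Mylk2 were not highest on it. Of all probe sets tested, 20.5% were highest on this array among the 6 of EDL, and 0.752% were at least 2-fold above every other EDL array, as Myl3 was. Genes of slow fibres went with it: 9 of 11 were highest there, with a median of 1.499 above the EDL control mean. Of 13 genes of fast fibres 0 were highest and 8 were lowest, with a median of -0.18. The share of all probe sets that were lowest on this array was not computed. The fibre lists were written with these results known and are given as a description.

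**Figure D3:**
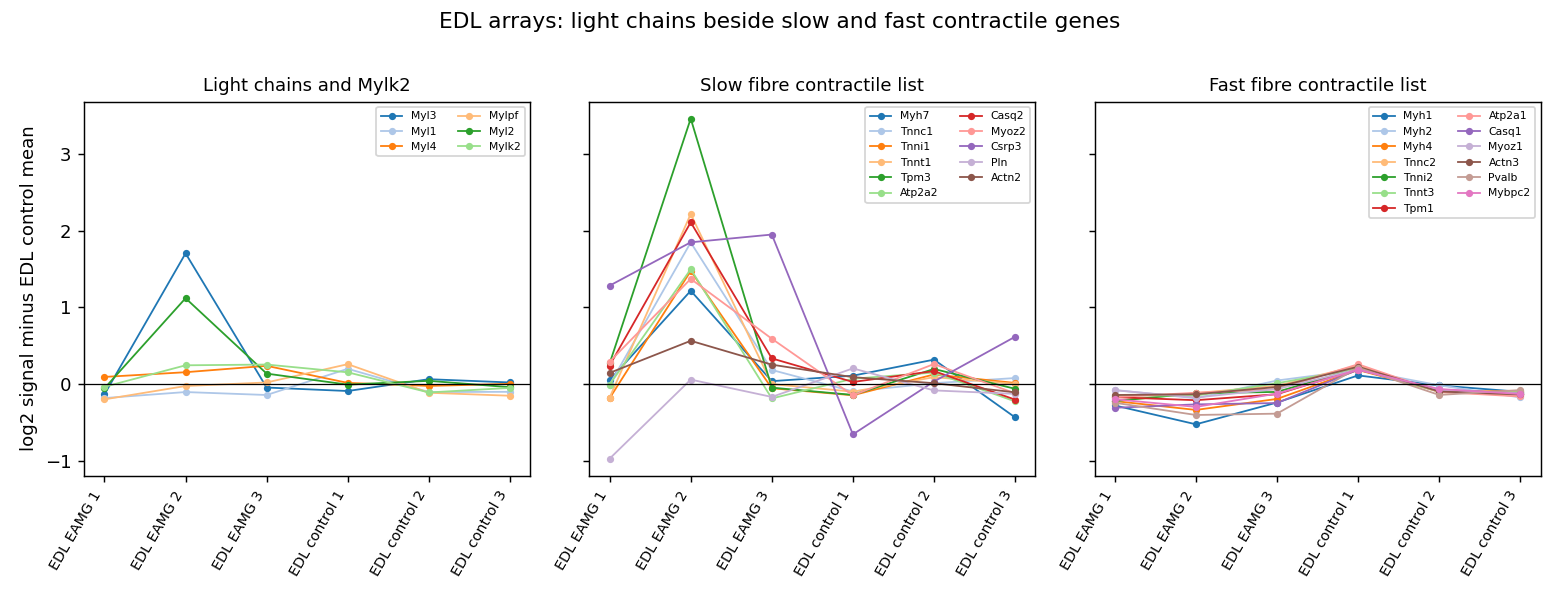
Log2 signal minus the EDL control mean on the 6 EDL arrays, EAMG to the left of control, for the light chains and Mylk2 (1 probe set a gene), 11 slow fibre genes and 13 fast fibre genes. Each line joins the values of 1 gene and the order of replicates has no meaning. On EDL EAMG 2, Myl3 (1.71) and Myl2 (1.12) rise with most slow fibre genes, and the fast fibre genes do not.

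Myl4, the atrial and embryonic essential chain (1371293_at), was higher on every EAMG array than on any control array of the same muscle. Of all probe sets, 13.3% were so in DIA, 12.6% were in EDL and 12.5% were in EOM, taken singly. It read 2242, 2557 and 1941 in DIA EAMG, against 1862, 1891 and 1894 in DIA control. It read 2037, 2126 and 2252 in EDL EAMG, against 1930, 1878 and 1913 in EDL control. In EOM it read 3187, 3633 and 2873 on EAMG arrays, against 2331, 1960 and 2163 on control arrays. The gap was widest in EOM, where the lowest EAMG array stood 542 units over the highest control, and narrow in DIA, where it was 47.

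In EOM the rise of Myl4 was 1.498-fold (log2 0.58 ± 0.12 SE, 95% interval 0.34 to 0.83, adjusted p 0.0177 by limma). In DIA the change was 0.25 (adjusted p 0.250) and in EDL 0.16 (adjusted p 0.416), and neither passed. The mean of the 3 changes was 0.33 ± 0.07 SE (adjusted p 0.00351), a rise of 1.26-fold, and it passed in every setting in which it was computed. The change in EOM exceeded that in EDL by 0.42, at an unadjusted p of 0.0213 and an adjusted p of 0.403 by limma, so a difference between muscles was not established. Control muscles did not differ in Myl4 past the threshold: the differences were 0.17 for EOM minus EDL, 0.19 for EOM minus DIA and -0.02 for DIA minus EDL, with SEs of 0.12.

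The call in EOM was lost without EOM EAMG 1 (adjusted p 0.0629), EOM EAMG 2 (0.0824), EOM control 2 (0.114) or EOM control 3 (0.0721) in limma, with changes between 0.50 and 0.66 over all fits that left out 1 array. The highest Myl4 arrays of DIA and EOM, EAMG 2 in each, were the 2 with little poly-A signal, and without both the EOM change had an adjusted p of 0.05004, just over the threshold. Myl4 is also a marker of the heart, so the other heart genes were read. Of 7 genes of a heart list, which includes Myl4 itself, 3 were tested. Myl4 was the only one that passed in EOM, where 1.5% of all probe sets did, and the median change of the 3 there was -0.86. For the mean over the muscles Myl4 passed as higher and the other 2 as lower, where 20.4% of all probe sets passed. A part of heart tissue in the Myl4 values was not tested. Myl7, the atrial regulatory chain, read 6, 10 and 32 in EOM EAMG and no more than 32 on any EAMG array.

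Relative to the essential chain of fast fibres, Myl4 was higher in EAMG too. The log2 ratio of Myl4 to Myl1, set against its EDL control mean, was 0.72 to 1.47 in EOM EAMG, against 0.30 to 0.58 in EOM control. It was 0.48 to 1.02 in DIA EAMG, against 0.28 to 0.47 in DIA control, and 0.26 to 0.38 in EDL EAMG, against -0.18 to 0.10 in EDL control. The groups did not overlap in any muscle, though narrowly in DIA (0.481 against 0.469), a description that shares its Myl4 values with the test above. How often ratios of other genes separate in this way was not computed. In EOM EAMG the ratio was lowest on array 1, where Myl1 was highest, and higher on arrays 2 and 3, where Myl1 was below all EOM controls.

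**Figure D4:**
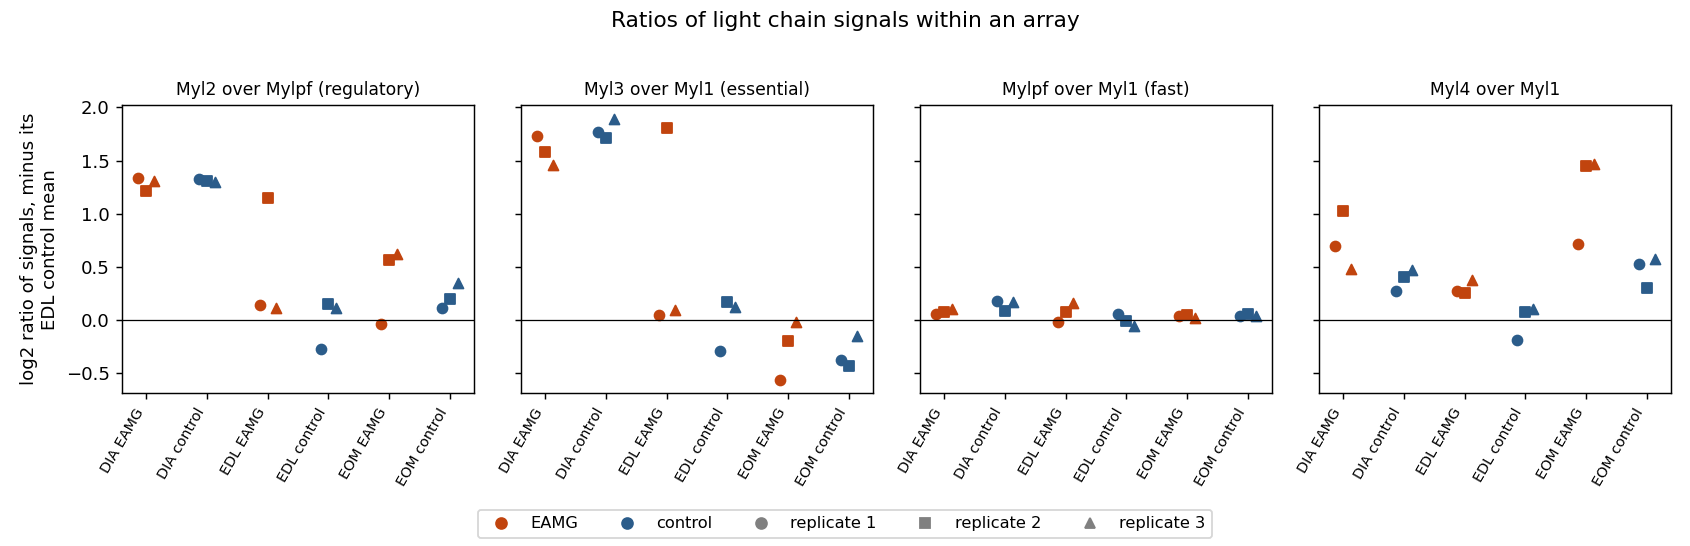
Log2 ratios of light chain signals within each array, minus the mean of the EDL control arrays, with EAMG in orange to the left of control in blue. The ratio of the fast chains stays within 0.24 over all 18 arrays, Myl3 over Myl1 spans 2.46, and Myl4 over Myl1 is higher on EAMG arrays than on control arrays of each muscle, narrowly so in DIA.

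Mylk2 differed most between the muscles. Probe set 1398821_s_at read 3255, 5719 and 5841 in DIA EAMG, against 2496, 2790 and 2883 in DIA control. It read 8139, 9885 and 9953 in EDL EAMG, against 9278, 7735 and 8059 in EDL control, and 1852, 1579 and 1424 in EOM EAMG, against 1632, 1464 and 1429 in EOM control. The DIA EAMG arrays all lay above the DIA controls, arrays 2 and 3 well above and array 1 by less, and the groups overlapped in EDL and EOM. The rise in DIA was 1.76-fold (log2 0.81 ± 0.19 SE, 95% interval 0.41 to 1.21, adjusted p 0.0332 by limma). The changes in EDL and EOM were 0.16 and 0.10 (SE 0.19), and neither passed.

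The DIA rise of Mylk2 rested on 2 arrays. Those with the high values, DIA EAMG 2 and 3, were the array with little poly-A signal and the array with a GAPDH ratio of 2.66. Without both, an alternative chosen after the data were seen, the change was 0.26 ± 0.18 SE and did not pass (adjusted p 1.00 by limma), where the remaining DIA EAMG array is assumed to vary like those of the other groups. Leaving out DIA EAMG 2, DIA EAMG 3 or any 1 of the DIA control arrays 1, 2 and 3 also ended the call (adjusted p 0.182, 0.117, 0.125, 0.0677 and 0.0771). Macrophage markers, 6 of 6 matched, summed to 8407 to 11634 in DIA EAMG against 5503 to 7995 in DIA control, though 0 of the 6 passed there. Their part in the Mylk2 values was not tested.

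The other Mylk2 probe set, 1398820_at, gave a smaller change in DIA. It read 1628, 2297 and 2199 in DIA EAMG, against 1397, 1660 and 1663 in DIA control, 3697, 4652 and 5195 in EDL EAMG, against 3679, 2993 and 3864 in EDL control, and 1136, 1064 and 831 in EOM EAMG, against 995, 852 and 863 in EOM control. The groups overlapped in every muscle, and in DIA only EAMG 1 fell among the controls. The changes were 0.36 in DIA (adjusted p 0.250), 0.36 in EDL (0.217) and 0.15 in EOM (0.756), and none passed in limma. With the mean of both probe sets the DIA change was 0.59 and did not pass (adjusted p 0.0714). The 2 probe sets had r of 0.985 over the 18 arrays, so they tracked each other across muscles while the size of the DIA change differed.

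Averaged over the 3 muscles, Mylk2 was higher in EAMG by 0.35 ± 0.11 SE (adjusted p 0.0312) and by 0.29 ± 0.10 SE (adjusted p 0.0482) for the 2 probe sets. With Myl4, 3 of the 8 probe sets thus passed for the mean change, all higher, where 20.4% of all probe sets passed and 10.5% passed as higher. The Mylk2 means depended on which arrays were used. Of the 18 fits that left out 1 array, they passed in 9 for 1398821_s_at and in 4 for 1398820_at, with adjusted p up to 0.0661 and 0.0975, both without DIA EAMG 2. Without EDL EAMG 2 they had adjusted p of 0.0550 and 0.0768. Without DIA EAMG 2 and 3 together they were 0.17 and 0.19 (adjusted p 0.242 and 0.304 by limma). The mean of Myl4 passed in all of these fits. A difference of the EAMG change between muscles passed for 0 of the 8 probe sets in any of the 3 tests, where 0.0163%, 0.0163% and 0.106% of all passed for EDL minus DIA, EOM minus DIA and EOM minus EDL in limma. At an unadjusted p under 0.05 there were 3 of 24, the Myl4 one above and Mylk2 (1398821_s_at) in EDL and in EOM against DIA, at -0.66 and -0.72. The share of all probe sets under that unadjusted p was not computed. Both Mylk2 differences share the DIA change, and on 1398820_at they were -0.007 and -0.21.

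In control muscles Mylk2 stood in the order EDL, DIA, EOM, with no overlap between neighbours on either probe set. The log2 difference of control EOM minus control EDL was -2.47 and -1.95 for 1398821_s_at and 1398820_at (adjusted p 1.83e-07 and 6.35e-07, limma). That of control EOM minus control DIA was -0.85 and -0.80 (adjusted p 0.00395 and 0.00329), and that of control DIA minus control EDL was -1.62 and -1.15 (adjusted p 3.04e-05 and 2.48e-04). Each step thus passed on both probe sets, and this order differs from that of Myl3 and Myl2, which were highest in DIA. Another kinase of the family, Mylk3, the light chain kinase of the heart, chosen after its values were seen, was higher in DIA than in EDL, like Myl3 and Myl2. It read 1493 to 1707 in DIA control and 118 to 178 in EDL control, a difference of 3.53 (adjusted p 3.01e-06 by limma).

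Over the members, control EOM minus EDL passed for 2 of 8 probe sets, both lower, where 41.4% of all probe sets passed and 18.3% passed as lower. Control EOM minus DIA passed for 5, all lower, where 21.3% passed and 10.7% as lower. Control DIA minus EDL passed for 5, where 24.8% passed, 14.1% as higher and 10.8% as lower. Of slow chains 3 probe sets were higher, Myl3 and both of Myl2, and 2 of Mylk2 were lower. Both counts of 5 include Myl2 (1388293_at), which read 221 to 327 in EDL control and 235 to 246 in EOM control. Those signals are all under the signal minimum, which it reached only on arrays of DIA and on EDL EAMG 2. Its calls are thus less certain. These 3 contrasts share control arrays. By arrays alone, 6 of 8 probe sets did not overlap in each of them, against 57.2%, 44.3% and 42.1% of all probe sets. EAMG and control did not overlap for 5 of 8 in DIA, 3 lower (Mylpf, Myl2 and Myl3) and 2 higher, for 1 of 8 in EDL and 1 of 8 in EOM, Myl4 in both, where 24.4%, 25% and 24.5% of all did not. The share of all that was lower in this way in DIA was 11.1%.

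The genes whose signal was most like that of each member were found by Pearson's r of log2 signal over the 18 arrays, which share array scaling and muscle. For Myl3 they were Xpo4 (0.972), Myh7, the slow heavy chain (0.968), and Ier3 (0.963), and for Myl2, Xpo4 (0.977), Atp2a2, the slow calcium pump (0.974), and Tnnc1, slow troponin C (0.960). For Myl1 they were Atp2a1, the fast calcium pump (0.990), Tnni2, fast troponin I (0.985), and Aldoa, a glycolytic aldolase (0.978), and for Mylpf, Ckm, muscle creatine kinase (0.992), COX1 (0.992) and Tnnc2, fast troponin C (0.988). The contractile genes in these sets were of the same fibre type as the light chain. Myl4 had lower values, 0.912 for Galt, 0.899 for Ormdl3 and 0.883 for Stom, none of them a contractile gene. Mylk2 was most like Ddx1 (0.976), Mbnl1 (0.976) and Ecpas (0.971).

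With the group means taken out, which leaves the spread among replicates, Myl3 was most like Tnnt1 (0.980), Tnni1 (0.974) and Tnnc1 (0.970), the slow troponins, and EDL EAMG 2 is the array that stands out in all of these. Myl2 was most like Tnni1 (0.968), Tnnc1 (0.967) and Myl3 (0.941). For Myl4 the values were lower again, led by Capns1 at 0.885, and for Mylk2 they were led by Arfgap1 at 0.915. Between members, r over the 18 arrays was 0.969 for Myl1 with Mylpf and 0.956 for Myl2 with Myl3, and -0.08 for Myl1 with Myl3.

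Among the rest of the light chain machinery Calm2, a calmodulin gene, was lower in EAMG. Of 18 listed other light chains, kinases, phosphatase subunits, calmodulins and related genes, 12 were matched and 10 tested. Within single muscles the only change that passed was a fall of Calm2 in DIA, where 2.68% of all probe sets passed. Calm2 read 7005, 5357 and 6680 in DIA EAMG, against 9516, 8476 and 9406 in DIA control, a log2 change of -0.53 ± 0.13 SE (adjusted p 0.0372 by limma). Its EDL and EOM values did not overlap between EAMG and control either, as for 25% and 24.5% of all probe sets. The changes there were -0.44 and -0.43 and did not pass (adjusted p 0.0502 and 0.114 by limma). The mean of its 3 changes, -0.47 ± 0.07 SE, did pass (adjusted p 6.27e-04 by limma), also in each of the 18 fits that left out 1 array. No other gene of the list passed for the mean, so 1 of 10 did, where 20.4% of all probe sets passed. The median change of the 10 genes was 0.09, -0.05 and -0.05 in DIA, EDL and EOM, while the medians over all probe sets were within 0.01 of 0.

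Among 8 myosin heavy chains, which the light chains bind, 1 rose in DIA, where 2.68% of all probe sets passed, and none passed in EDL or EOM. It was Myh3, the embryonic heavy chain, at 168, 165 and 225 in DIA EAMG, against 15, 83 and 12 in DIA control (adjusted p 0.0258 by limma). All 6 DIA values are below 400, and the probe set was tested because it is bright elsewhere, at 15369 to 21307 in EOM EAMG and 19047 to 22521 in EOM control, so no fold is given for DIA. Of 6 tested genes of developing or regenerating muscle, Myh3 in DIA was the only one to pass there, and Ncam1, a cell adhesion molecule that spreads over denervated fibres, rose in EDL. Ncam1 read 512, 595 and 373 in EDL EAMG, against 216, 212 and 235 in EDL control (log2 1.13 ± 0.14 SE, adjusted p 0.00146). For the mean of the 3 changes, where 20.4% of all probe sets passed, 3 of the 8 heavy chains did, Myh3 higher and Myh1, a fast heavy chain, and Myh6, the atrial heavy chain, lower. Myh1 fell by 0.37 (adjusted p 0.00286) and passed in each of the 18 fits that left out 1 array, while its probe set may also bind transcripts of related heavy chains. Myh6 (-0.55, adjusted p 0.0236) did not pass without both arrays of little poly-A signal (adjusted p 0.0737) or without DIA EAMG 2 and 3 (0.0744). Of the 6 genes of developing or regenerating muscle, 3 passed as higher, where 10.5% of all probe sets did. They were Ncam1 (0.65, adjusted p 1.51e-04), Myog, the myogenic factor myogenin (0.47, adjusted p 0.0319), and Myh3 (adjusted p 0.0296). Without EDL EAMG 2 only Ncam1 passed, and likewise without DIA EAMG 2 and 3. Myh3 is counted in both lists, and its mean takes in the DIA change, from values all under 400. In EOM, where Myh3 is bright, its EAMG and control signals overlapped.

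Of the 11 slow fibre genes, 1 fell in DIA, 2 rose in EDL and 0 passed in EOM, where 2.68%, 6.59% and 1.5% of all probe sets passed. The fall was of Pln, phospholamban, which holds back the slow calcium pump and read 585, 480 and 558 in DIA EAMG, against 2559, 2595 and 2670 in DIA control (log2 -2.27 ± 0.19 SE, adjusted p 5.53e-05 by limma). In EDL, Csrp3, a Z-disc protein, rose by 1.70 (adjusted p 0.0101) and Myoz2, a Z-disc protein of slow fibres, by 0.75 (adjusted p 0.0408). Without EDL EAMG 2 only Csrp3 passed, where 1.96% of all probe sets did, and the median of the slow list in EDL was 0.09, against 0.68 with that array. Of the 13 fast fibre genes, 1 passed within a muscle, a fall of Pvalb, the calcium buffer parvalbumin, in DIA, at 7606, 6747 and 7271 in DIA EAMG, against 15062, 18671 and 16482 in DIA control (log2 -1.21 ± 0.15 SE, adjusted p 0.00161). For the mean of the 3 changes, 1 slow gene passed as higher, Csrp3 (1.18, adjusted p 8.28e-04), and 1 as lower, Pln (-0.85, adjusted p 1.84e-04). Without EDL EAMG 2, 1 of the 11 slow genes passed as higher, Csrp3, and 3 as lower, Pln, Tnni1 and Tpm3. In that setting 2184 of all 12238 probe sets passed for the mean. Of the fast genes 2 passed for the mean, both lower, Pvalb (-0.58, adjusted p 5.58e-04) and Myh1. With all arrays, neither list passed for the mean more often than the 20.4% of all probe sets. The medians of the fast list were -0.20, -0.15 and -0.10 in DIA, EDL and EOM.

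Among markers of other tissues, the red blood cell sums did not overlap between EAMG and control in any muscle, and the tendon and fibroblast sums overlapped only in EOM. The summed signal of 5 tendon and fibroblast markers was 9207 to 14622 in DIA EAMG against 21919 to 23362 in DIA control, and 5928 to 10291 in EDL EAMG against 11467 to 19201 in EDL control. In EOM it was 18214 to 28509 in EAMG and 23680 to 24197 in control. Of these 5 genes, 1 passed as lower in DIA, 2 in EDL and 0 in EOM, where 2.68%, 6.59% and 1.5% of all probe sets passed in either direction. Of 5 red blood cell markers, 2 were matched, and they summed to 1853 to 5049 in DIA EAMG against 12141 to 17986 in DIA control, to 1078 to 2555 in EDL EAMG against 3348 to 5093 in EDL control, and to 1901 to 3358 in EOM EAMG against 8003 to 11291 in EOM control. Both passed as lower in DIA and in EOM, and neither passed in EDL. In EOM the sum of 7 epithelial markers was 891 to 4667 in EAMG and 649 to 1236 in control, which overlap, and 0 of the 6 tested passed. The part of all these markers in the values of Myl4 and Mylk2 was not tested. For the 4 matched of 5 limb markers the sums were 1289 to 1491 in EDL EAMG and 1477 to 1575 in EDL control, and no more than 306 in the other muscles. Sums of the smooth muscle (7 of 7 matched), endothelium (4 of 5), adipocyte (5 of 5) and Schwann cell (3 of 5) markers overlapped between EAMG and control in DIA and in EOM. Of 6 tested smooth muscle markers, 1 passed as lower in DIA, 1 in EDL and 0 in EOM, where 2.68%, 6.59% and 1.5% of all probe sets passed in either direction. None of the tested endothelium, adipocyte and Schwann cell markers passed in any muscle.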

How the data were processed

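RNA of DIA, EDL and EOM from EAMG and control rats was measured on 18 one-colour rat arrays, 3 for each of 6 groups, grouped by the sample titles. The deposited signal intensities are linear values, which the authors made with GCOS 2.0 from perfect match and mismatch probes and scaled to the same target on every array. They were not scaled again. Such scaling makes each signal relative to the rest of the array, and the very bright probe sets of muscle genes can be compressed. Change calls and present calls were not used here.

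Gene symbols came from the platform annotation, which gave 20826 probe sets 1 symbol, 436 several and 9780 none, and only those with 1 were named. The 57 control probe sets were left out. Signals were taken to log2, and probe sets that reached 400 on at least 1 array were tested (12238). Limma 3.58.1 under R 4.3.3 (lmFit, eBayes) was fitted to the 18 arrays together, with a mean for each group, in place of the GCOS change calls of the methods, which need probe-level data. P-values were adjusted by Benjamini and Hochberg over all tested probe sets and passed under 0.05. The fit was tested on simulated data. Groups of 3 arrays limit the precision, and an exact test of 3 against 3 cannot go below 0.1.

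Every probe set of the members was named. Other genes were named for likeness (the 3 highest r for the leading probe set of each member), as the up to 2 largest changes that passed in a list, or because they passed for the mean change. Further genes were named outside this rule, among them Myh13, Myl7, Mylk3, Tnni1 and Tpm3. Members and lists were chosen with earlier results of these data known, and 2 genes of the regulator list are not reported here. Besides the fibre, heavy chain, regeneration and regulator lists, marker lists of skeletal muscle, EOM, limb, heart, smooth muscle, macrophages, red blood cells, endothelium, adipocytes, Schwann cells, epithelium and tendon were read. Alternatives were another signal minimum or none, quantile normalization, 100 added to each signal, each muscle fitted alone, an intensity trend, a replicate block, the mean over the probe sets of a gene, and leaving out each array or the arrays that stood apart. For the gene lists, leaving out arrays was chosen after the data were seen. Promoter windows are from RefSeq (GRCr8). Figures were drawn with matplotlib 3.10.9.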

Additional observations from a re-analysis of the deposited data

How the results depend on the processing

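Of 80 member differences, 22 that are not given above, all with an unadjusted p of 0.1 or more, passed in no setting. Over the other 58 and 28 other settings, 1515 of 1591 comparisons kept their direction and side of the threshold, 48 fell short of it, 5 newly passed and 23 changed sign. Of 17 differences that passed, 4 lost the call in at least 1 setting: Mylk2 (1398821_s_at) in DIA, Myl4 in EOM and the mean changes of both Mylk2 probe sets. The cause was not tested.

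The number of member probe sets that passed in DIA was 0, in place of 1, with no signal minimum, with DIA fitted alone, without the 2 arrays with little poly-A signal, without DIA EAMG 2 and 3 together (chosen after the data were seen) and with the mean over the probe sets of a gene, and 0 to 1 with 1 array left out. In EOM it was 0 with no signal minimum, with EOM fitted alone and without those 2 arrays, and 0 to 1 with 1 array left out. For the mean change it was 1, in place of 3, with no minimum, without those 2 arrays and without DIA EAMG 2 and 3, and 1 to 3 with 1 array left out. Taking the mean of the probe sets of a gene reduces 8 values to 6, and then 1, 3 and 3 passed for control EOM minus EDL, EOM minus DIA and DIA minus EDL.

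Among the 58, quantile normalization changed the sign of 8 differences that had not passed: Myl1 in DIA (0.022), Mylpf in EDL (0.030), Myl2 (1388200_at) in EOM (0.083), control EOM minus EDL of Myl1 (0.020), Mylpf (0.10) and Myl2 (0.12), and control DIA minus EDL of Mylpf (0.036) and Myl4 (0.0077). It also ended the call for the mean change of Mylk2 (1398820_at, adjusted p 0.0686). With 1 array left out, signs changed among the 58 for Myl2 (1388293_at) in DIA (-0.43 to 0.020), EDL (-0.029 to 0.69) and control EOM minus EDL (-0.16 to 0.12), Myl3 in EDL (-0.088 to 0.83), Mylpf in EDL (-0.14 to 0.065), EOM (-0.41 to 0.052) and control EOM minus DIA (-0.034 to 0.069), Myl1 in EOM (-0.40 to 0.049), Myl2 (1388200_at) in EOM (-0.075 to 0.093) and Mylk2 (1398821_s_at) in EOM (-0.0062 to 0.18). Of the 22 further differences 13 changed sign in at least 1 setting, 49 times in all and 4 times with quantile normalization. The mean changes of Myl3 and Myl2 (1388200_at) were among them, at -0.17 and -0.05 without EDL EAMG 2, against 0.03 and 0.07 with it.

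The replicate numbers do not pair the samples by label, and same-numbered EAMG and control arrays of a muscle had correlated deviations of only -0.03 to 0.34. With the replicate number as a block, the mean change of Mylk2 (1398820_at) no longer passed (adjusted p 0.0561), and no other member call was lost. Signals under 400, as for Myl2 (1388293_at), limit the precision of the differences they enter.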
